A study of Mus musculus with 12 samples.

Results

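Superoxide dismutases turn superoxide into hydrogen peroxide, catalase breaks hydrogen peroxide down, and a small set of epithelial enzymes makes superoxide, hydrogen peroxide or nitric oxide as its main product. Such genes were chosen by their symbols, 10 of the 54532 in the deposited table. They are the superoxide dismutases *Sod1*, *Sod2* and *Sod3*, the catalase gene *Cat*, the NADPH oxidase *Nox1* with its organizer *Noxo1* and its activator *Noxa1*, the dual oxidase *Duox2* with its maturation factor *Duoxa2*, and the inducible nitric oxide synthase *Nos2*. Their mRNA was measured in mouse colonoids, which are organoids grown from colonic epithelial stem cells. Control colonoids came from *Hmox1* fl/fl mice, whose heme oxygenase-1 gene carries loxP sites, and KO colonoids (*Hmox1*ΔIEC) came from mice that also carried Vil1-Cre, a recombinase under the villin promoter that acts in intestinal epithelium. Both kinds of colonoid, made from young adult mice and held in medium conditioned by L-WRN cells, were given vehicle or 200 µM hemin, the ferric chloride of heme, for 24 hours. There were 3 libraries in each of the 4 groups. The labels do not say how many mice, clones or cultures stand behind the 3 libraries of a group, so the p-values below measure the spread between these libraries, which may be technical. The labels write the genotype of replicate 3 of the hemin-treated KO group with floxed alleles and Vil1-Cre, and that of the other KO libraries as KO with Vil1-Cre.

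NOX1 is the main superoxide-producing NADPH oxidase of the colonic epithelium. It sits in the membrane with p22phox, the product of *Cyba*, and works once NOXO1, NOXA1 and the GTPase RAC1 have joined it. DUOX2 releases hydrogen peroxide at the apical face of epithelial cells and reaches the surface only with DUOXA2, and both are known to be induced by microbes, as is NOS2. SOD1 is the copper and zinc enzyme of the cytosol, SOD2 the manganese enzyme of mitochondria and SOD3 the secreted form, while catalase is a heme protein of peroxisomes.

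Levels are given as FPKM, fragments per kilobase of gene length scaled for each library, as deposited. Each value was a whole multiple of the value of 1 fragment, so fragments could be recovered, and 11648801 to 25101868 of them fell on genes in each library. Replicate 3 of the hemin-treated controls stood furthest from its group. Its root mean square log2 difference from the other 2 libraries of its group was 0.484, against 0.185 to 0.357 in the other 11 libraries, and mitochondrial genes held 4.92% of its fragments, against 2.29% to 3.74%. Fragments of pairs of libraries within a group were also compared by chi-square per degree of freedom. It was 20.2 and 19.2 for pairs with replicate 1 of the vehicle-treated controls, against 2.69 for the remaining pair. Pairs with replicate 2 of the hemin-treated KO group had 33.9 and 31.8, against 3.73. *Hmox1*, the targeted gene (chr8:75093621-75100589 of mm10, plus strand), had 3.14, 2.11 and 2.31 FPKM in vehicle-treated colonoids labelled KO and 6.85 to 7.90 in vehicle-treated controls. With hemin it reached 1279, 1392.5 and 1271 FPKM in those labelled KO and 382 to 503 in controls, so that its level under hemin went against the label and every direction between genotypes below is drawn between libraries labelled KO and control. A gene-level FPKM also counts exons outside a deleted stretch, and which exons lie between the loxP sites is not given in the sources used here, so this level does not check the deletion itself. All 8 epithelial markers examined were expressed, with a summed level of 5873 to 10048 FPKM per library. The 8 immune markers summed to 1.02 to 5.20 FPKM, the 8 stromal markers to 0.491 to 1.35 and the 4 endothelial markers to 0.0388 to 0.283, and only *Cd68* and *Pdgfrb* averaged at least 1 FPKM in any group.

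Of the 10 genes, 9 passed the filter of at least 1 FPKM in at least 3 of the 12 libraries, and *Sod3* did not. Differences between groups are given for those 9 on the scale of log2(FPKM + 1), tested with limma over all 12740 genes that passed, and a gene is said to have risen or fallen where its adjusted p was under 0.05. With hemin, *Sod1*, *Sod2* and *Cat* rose and *Nox1*, *Noxa1*, *Duox2*, *Duoxa2* and *Nos2* fell in control colonoids, 3 and 5 of 9, when 23.2% of all genes tested rose and 26.7% fell. The same 3 rose and the same 5 fell in colonoids labelled KO, where *Noxo1* rose too, 4 and 5 of 9 against 29.9% and 30.4% of all genes tested. Under vehicle, *Nox1* was higher and *Cat*, *Duox2*, *Duoxa2* and *Nos2* were lower in those labelled KO, 1 and 4 of 9, against 17.4% and 16.8% of all genes tested. Under hemin, *Sod1* and *Noxo1* were higher and *Cat* and *Noxa1* lower in those labelled KO, 2 and 2 of 9, against 19.7% and 14.7%. Rescaling each library to TPM moved the median difference of all genes from -0.013 to -0.16 with hemin in controls and from -0.0019 to -0.27 in those labelled KO. The shares of all genes that rose and fell with hemin were then 6.77% and 24.6% in controls and 9.45% and 37.3% in those labelled KO, and *Sod2* was no longer called in either. On TPM the median was 0.14 in place of 0.019 between genotypes under vehicle, with 12.5% of genes higher and 6.46% lower, and -0.11 in place of 0.016 in the interaction of genotype and hemin. Under hemin 8.84% of genes were higher and 7.30% lower on TPM, with 1 and 2 of the 9 members. Leaving *Gm23935*, which held up to 29.0% of the FPKM sum of a library, out of the TPM gave 17.9% and 32.6% with hemin in controls and 19.3% and 41.0% in those labelled KO, and 16.3% higher and 17.0% lower between genotypes under hemin. *Sod2* with hemin and *Sod1* between genotypes under hemin kept their calls in that setting.

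**Figure D1:**
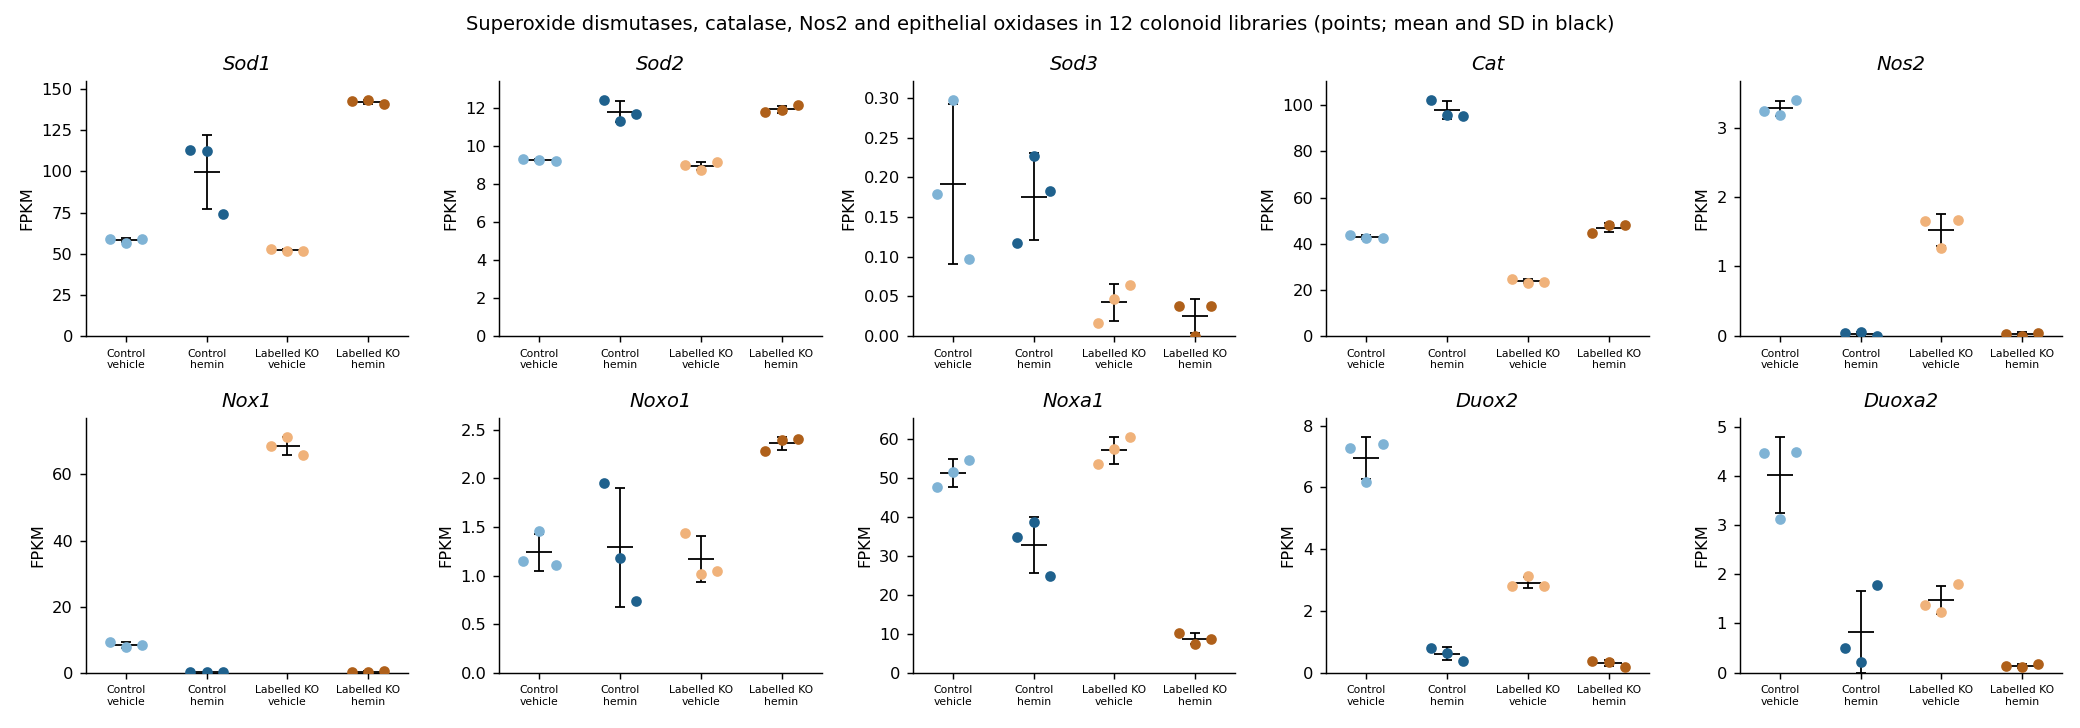
FPKM of each of the 10 genes (vertical axes, starting at 0) in the 4 groups, with 1 point per library and the mean and SD in black. *Nox1* and *Nos2* sit near 0 in all 6 hemin-treated libraries, *Nox1* at 65.9 to 71.5 in the 3 vehicle-treated libraries labelled KO, and replicate 3 of the hemin-treated controls lies apart from the other 2 for *Sod1* and *Duoxa2*.

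**Figure D2:**
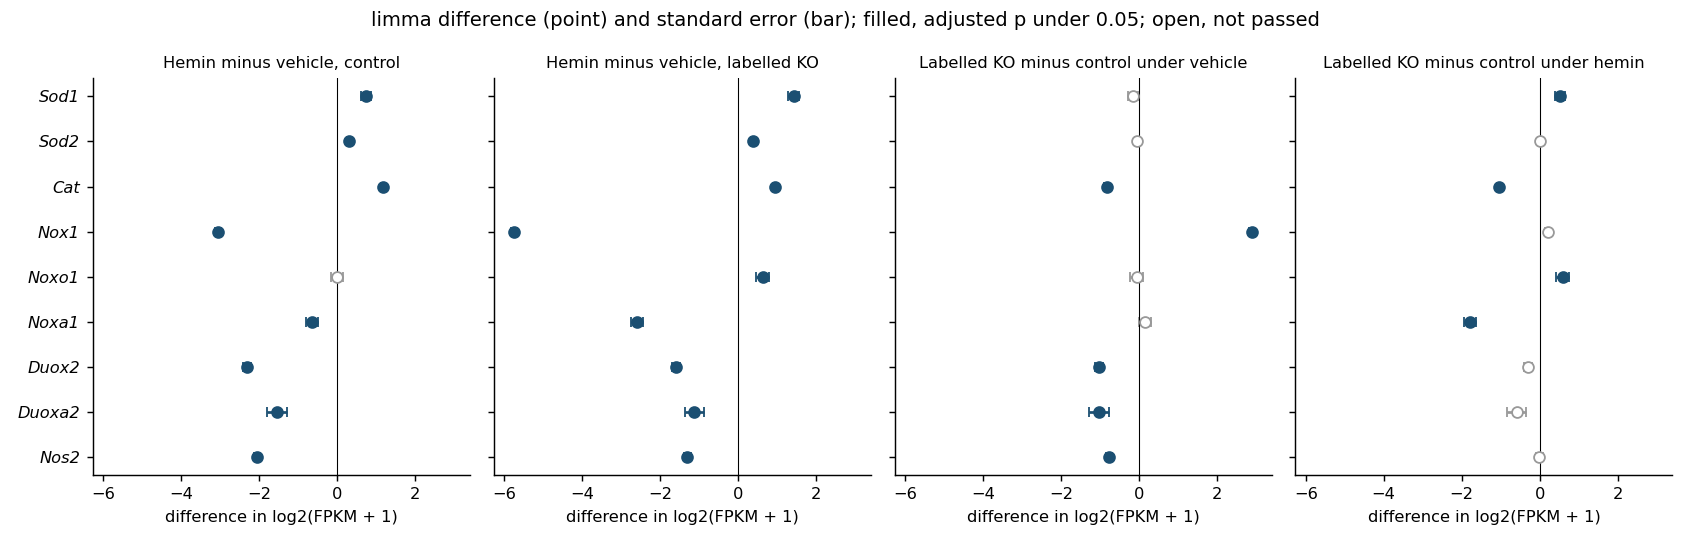
Difference in log2(FPKM + 1) (horizontal axes) for the 9 tested genes in the 4 comparisons between groups, with points for the limma estimate, bars for its SE and filled points where the adjusted p was under 0.05. *Nox1* spans -5.75 to 2.89, while *Sod2* spans -0.044 to 0.38.

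The bases before the start sites of 5 members are shown so that the neighbouring *Duox2* and *Duoxa2*, which fell together, and *Nox1*, which moved most, can be set beside *Sod1* and *Cat*, which rose. RefSeq windows on GRCm38.p6 were matched for 8 of the 10 genes, all but *Sod3* and *Nos2*. Each line holds the 250 bases before the start, 5′ to 3′ on the gene's own strand: chr16:90220512-90220761 (plus) for *Sod1*, chr2:103485154-103485403 (minus) for *Cat*, chrX:134111855-134112104 (minus) for *Nox1*, chr2:122298228-122298477 (minus) for *Duox2* and chr2:122298650-122298899 (plus) for *Duoxa2*. Capitals mark matches, on either strand, to 6 short motifs: the TATA box spelled with the letters TATAAA, the AP-1 site spelled TGANTCA, the core of the antioxidant response element spelled TGACNNNGC, the GATA factor site spelled AGATAA, the forkhead site spelled GTAAACA and the box named for its letters CCAAT, and no matches overlapped here.
Sod1: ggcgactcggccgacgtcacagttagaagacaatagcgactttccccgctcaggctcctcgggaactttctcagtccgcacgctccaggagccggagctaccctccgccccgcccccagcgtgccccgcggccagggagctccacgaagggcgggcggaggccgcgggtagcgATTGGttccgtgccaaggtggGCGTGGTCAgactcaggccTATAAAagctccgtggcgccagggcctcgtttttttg
Cat: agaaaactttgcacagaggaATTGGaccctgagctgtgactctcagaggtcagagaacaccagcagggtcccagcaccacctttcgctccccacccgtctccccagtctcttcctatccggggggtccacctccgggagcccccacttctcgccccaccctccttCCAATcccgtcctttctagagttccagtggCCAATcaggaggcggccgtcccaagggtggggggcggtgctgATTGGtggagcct
Nox1: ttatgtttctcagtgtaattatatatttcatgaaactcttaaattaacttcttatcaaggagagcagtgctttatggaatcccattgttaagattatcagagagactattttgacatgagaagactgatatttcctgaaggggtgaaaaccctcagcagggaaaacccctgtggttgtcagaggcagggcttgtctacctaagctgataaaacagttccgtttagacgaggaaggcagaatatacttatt
Duox2: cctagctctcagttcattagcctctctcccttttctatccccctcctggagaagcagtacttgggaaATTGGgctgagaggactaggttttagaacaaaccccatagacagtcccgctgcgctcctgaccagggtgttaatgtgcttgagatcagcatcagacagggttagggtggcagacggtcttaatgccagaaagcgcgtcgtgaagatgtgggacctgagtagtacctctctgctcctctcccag
Duoxa2: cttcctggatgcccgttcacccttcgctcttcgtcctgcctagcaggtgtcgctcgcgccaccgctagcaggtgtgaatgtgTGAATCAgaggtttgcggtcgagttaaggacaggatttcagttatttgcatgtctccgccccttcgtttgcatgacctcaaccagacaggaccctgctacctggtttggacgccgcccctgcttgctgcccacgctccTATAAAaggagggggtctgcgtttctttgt

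*Duox2* and *Duoxa2* are transcribed away from each other, with 672 bases between their RefSeq starts. The 2 windows shared no motif: that of *Duoxa2* held a TATA box (first base at -30 from the start) and an AP-1 site (first base at -168), and that of *Duox2* a CCAAT box. The *Sod1* window held a TATA box, an antioxidant response element core and a CCAAT box, with first bases at -37, -56 and -77, the *Cat* window 4 CCAAT boxes and the *Nox1* window none of the 6 motifs. Of all 32851 windows of 300 bases, 13.6% held the TATA box, 7.81% the AP-1 site, 12.4% the antioxidant response element core, 11.2% the GATA site, 3.65% the forkhead site and 37.4% the CCAAT box. The printed *Nox1* stretch had 38.0% G and C and 2 CG dinucleotides, against medians of 52.4% and 6 over all windows, and that of *Sod1* had 66.4% and 26. The RefSeq start of *Nox1* lies inside the longer span of the gene in the deposited table. These matches describe letters in a window and not binding.

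*Nox1* (ENSMUSG00000031257; chrX:134086421-134221956, minus strand) was 8.19-fold higher in vehicle-treated colonoids labelled KO than in vehicle-treated controls, and was at most 0.379 FPKM with hemin in both. It had 9.24, 7.63 and 8.27 FPKM in vehicle-treated controls and 68.5, 71.5 and 65.9 in vehicle-treated colonoids labelled KO. With hemin the values were 0.133, 0.128 and 0.104 FPKM in controls and 0.252, 0.244 and 0.379 in those labelled KO, or 14 and 49 fragments over the 3 libraries of each. No value of one group reached those of another in any of these comparisons. The vehicle level was 69.1-fold above the hemin level in controls, with a 95% interval of 41.0 to 127, and 235-fold above it in those labelled KO, with an interval of 183 to 328. These intervals, like the others on folds below, are exact, come from the summed fragments and cover counting error only. On the log2 scale the difference of *Nox1* with hemin was -3.06 ± 0.074 (SE) in controls (adjusted p = 5.44e-10) and -5.75 ± 0.074 in those labelled KO (adjusted p = 7.13e-12), the fourth lowest difference of the 12740 genes. Between genotypes the difference was 2.89 ± 0.074 under vehicle (adjusted p = 2.99e-10). Under hemin it was 0.20 ± 0.074 and did not pass (adjusted p = 0.057), while a pseudocount of 0.1 gave 0.81 (adjusted p = 0.00083) and limma-voom on the fragments 1.11 (adjusted p = 0.066).

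*Noxa1* (ENSMUSG00000036805; chr2:25085667-25095149, minus strand), which activates NOX1, was expressed in all 4 groups and fell most in hemin-treated colonoids labelled KO. It had 47.7, 51.5 and 54.8 FPKM in vehicle-treated controls and 34.9, 38.8 and 24.9 with hemin. In colonoids labelled KO it went from 53.5, 57.4 and 60.5 FPKM with vehicle to 10.1, 7.33 and 8.62 with hemin. The vehicle groups overlapped, and the hemin-treated libraries labelled KO lay below all other 9. The log2 difference with hemin was -0.65 ± 0.15 in controls (adjusted p = 0.0041), or -0.47 without replicate 3 of the hemin-treated controls (adjusted p = 0.0050), and -2.59 ± 0.15 in those labelled KO (adjusted p = 1.22e-07), a 6.58-fold lower level. Under hemin *Noxa1* was lower in those labelled KO, with a log2 difference of -1.79 ± 0.15 (adjusted p = 4.32e-06). *Entpd8*, which overlaps *Noxa1* on the opposite strand, averaged 62.6, 49.8, 57.4 and 27.4 FPKM in the order control vehicle, control hemin, labelled KO vehicle and labelled KO hemin. The overlap is a short stretch at the edge of both genes, since *Entpd8* ends at base 25085716 and the *Noxa1* span begins at 25085667. The strand setting of the counting is not given in the sources used here, and how far reads of the 2 genes were shared was not tested.

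*Noxo1* (ENSMUSG00000019320; chr17:24696234-24700529, plus strand), which tethers the complex to the membrane, was low in every group. Vehicle-treated controls had 1.15, 1.46 and 1.11 FPKM, hemin-treated controls 1.95, 1.18 and 0.739, vehicle-treated colonoids labelled KO 1.44, 1.02 and 1.04 and hemin-treated ones 2.28, 2.40 and 2.41. The last group lay above the other 9 libraries, which overlapped. *Noxo1* rose by 0.64 ± 0.16 log2 with hemin in those labelled KO (adjusted p = 0.0060) and differed by 0.0017 ± 0.16 in controls (adjusted p = 0.99). Between genotypes under hemin it was higher in those labelled KO by 0.59 ± 0.16 log2 (adjusted p = 0.017), a difference of 0.41 without replicate 3 of the controls (adjusted p = 0.036). It did not pass with only the 2 hemin groups fitted (adjusted p = 0.080) or without replicate 3 of those labelled KO (0.58, adjusted p = 0.052). *Tbl3*, which overlaps *Noxo1* on the opposite strand, averaged 8.07 and 9.53 FPKM in vehicle-treated and hemin-treated controls. In those labelled KO it averaged 10.2 and 10.9 FPKM. How far reads of *Noxo1* and *Tbl3* were shared was not tested.

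*Cyba* (ENSMUSG00000006519; chr8:122424776-122432930, minus strand), whose product p22phox is the membrane partner of NOX1, was far lower in the libraries labelled KO under either treatment. It had 33.1, 32.3 and 36.3 FPKM in vehicle-treated controls and 22.0, 21.7 and 15.2 in hemin-treated controls. In those labelled KO it had 1.18, 1.28 and 0.972 FPKM with vehicle and 0.334, 0.164 and 0.0671 with hemin, or 60 and 10 fragments in all against 1660 and 712 in the controls. The 6 libraries labelled KO lay below all 6 controls. *Cyba* was 29.7-fold lower under vehicle, with an interval of 22.8 to 38.8 (log2 difference -4.03 ± 0.14, adjusted p = 2.76e-09), and 104-fold lower under hemin, with an interval of 57.6 to 223 (log2 difference -4.11 ± 0.14, adjusted p = 2.32e-09). Without replicate 1 of the hemin-treated libraries labelled KO the latter fold was 170.2. *Nox1* and *Cyba* thus differed in opposite directions between the vehicle-treated genotypes. With hemin the log2 difference of *Cyba* was -0.78 ± 0.14 in controls (adjusted p = 0.00070) and -0.85 ± 0.14 in those labelled KO (adjusted p = 0.00025). In linear terms it was 1.73-fold lower with hemin in controls, with an interval of 1.57 to 1.88. In those labelled KO it was 6.07-fold lower, with an interval of 3.16 to 13.6, which rests on the 10 fragments left with hemin.

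*Rac1*, the GTPase of the complex, rose with hemin from a mean of 114 to 129.9 FPKM in controls (adjusted p = 0.013) and from 101 to 150.4 in those labelled KO (adjusted p = 4.25e-06). *Nox3*, *Nox4*, *Cybb*, *Ncf1*, *Ncf4*, *Rac2*, *Duox1* and *Duoxa1* did not pass the filter and reached at most 0.540 FPKM and 18 fragments in any library. *Cybb*, the phagocyte oxidase, had at most 1 fragment.

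**Figure D3:**
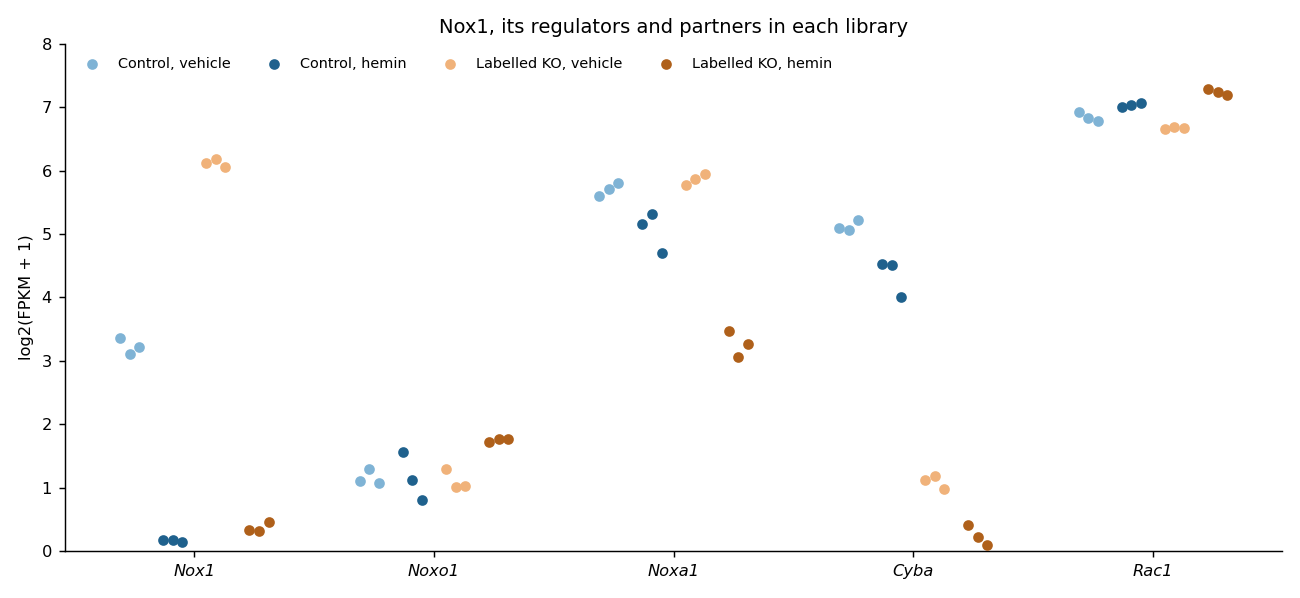
Level as log2(FPKM + 1) (vertical axis) of *Nox1*, its 2 regulators and 2 partners in the 12 libraries, with 1 point per library and colour for the group. *Nox1* is highest in vehicle-treated libraries labelled KO, at 65.9 to 71.5 FPKM, where *Cyba* lies at 0.972 to 1.28 FPKM against 32.3 to 36.3 in vehicle-treated controls.

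*Duox2* (ENSMUSG00000068452; chr2:122279247-122298165, minus strand) and *Duoxa2* (ENSMUSG00000027225; chr2:122298900-122302885, plus strand) were both lower with hemin in each genotype and both lower in those labelled KO under vehicle. *Duox2* had 7.29, 6.17 and 7.42 FPKM in vehicle-treated controls, 0.808, 0.647 and 0.388 in hemin-treated controls, 2.82, 3.12 and 2.79 in vehicle-treated colonoids labelled KO and 0.380, 0.339 and 0.196 in hemin-treated ones. Each group lay apart from the next in the order vehicle control, vehicle labelled KO, hemin control and hemin labelled KO. The hemin level was 11.3-fold lower in controls, with an interval of 9.50 to 13.5, and 9.55-fold lower in those labelled KO, with an interval of 7.65 to 11.6. The log2 differences were -2.31 ± 0.11 (adjusted p = 6.84e-08) and -1.58 ± 0.11 (adjusted p = 4.74e-07). Under vehicle *Duox2* was 2.39-fold lower in those labelled KO (log2 difference -1.02 ± 0.11, adjusted p = 2.96e-05). Under hemin the log2 difference was -0.30 ± 0.11 and did not pass (adjusted p = 0.056), but passed with a pseudocount of 0.1 (-0.80, adjusted p = 0.023), with limma-voom (-0.96, adjusted p = 0.038) and without replicate 3 of the hemin-treated controls (-0.41, adjusted p = 0.0075). It also passed on TPM without *Gm23935* (adjusted p = 0.047) and without a trend in the moderation (adjusted p = 0.048).

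*Duoxa2* had 4.46, 3.12 and 4.48 FPKM in vehicle-treated controls and 0.496, 0.212 and 1.77 with hemin. In colonoids labelled KO it had 1.38, 1.24 and 1.79 FPKM with vehicle and 0.131, 0.107 and 0.175 with hemin. Replicate 3 of the hemin-treated controls, with 33 of the 46 fragments of its group, reached the levels of the vehicle-treated libraries labelled KO, and the other groups did not overlap. The log2 difference with hemin was -1.54 ± 0.25 in controls (adjusted p = 0.00044), or -1.89 without that library (adjusted p = 4.17e-06), and -1.11 ± 0.25 in those labelled KO (adjusted p = 0.0027). In linear terms *Duoxa2* was 4.86-fold lower with hemin in controls and 10.7-fold lower in those labelled KO, with intervals of 3.52 to 6.71 and 5.99 to 22.9. Without replicate 3 of the hemin-treated controls the fold in controls was 11.4. Under vehicle *Duoxa2* was lower in those labelled KO by a log2 difference of -1.02 ± 0.25 (adjusted p = 0.0089), a call lost with a pseudocount of 0.1 (adjusted p = 0.058). Under hemin its log2 difference was -0.59 ± 0.25 (adjusted p = 0.095), -1.58 with a pseudocount of 0.1 (adjusted p = 0.033) and -0.24 without replicate 3 of the controls (adjusted p = 0.23). The ratio of *Duox2* to *Duoxa2* FPKM was 1.64 to 1.97 in vehicle-treated controls and 1.56 to 2.52 in vehicle-treated colonoids labelled KO. With hemin it was 1.63, 3.05 and 0.218 in controls and 2.90, 3.17 and 1.12 in those labelled KO.

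*Nos2* (ENSMUSG00000020826; chr11:78920787-78960254, plus strand), which makes nitric oxide from arginine, was not detectable beyond a few fragments with hemin. Vehicle-treated controls had 3.24, 3.18 and 3.40 FPKM, or 236, 240 and 206 fragments, and vehicle-treated colonoids labelled KO had 1.65, 1.26 and 1.67 FPKM, or 119, 96 and 124 fragments. Hemin-treated controls had 2, 3 and 0 fragments and hemin-treated colonoids labelled KO 2, 0 and 3, all within the floor of 3 fragments per library. Summed over the 3 libraries, 682 fragments with vehicle stood against 5 with hemin in controls, and 339 against 5 in those labelled KO. The log2 difference of *Nos2* was -2.05 ± 0.087 in controls (adjusted p = 2.94e-08) and -1.30 ± 0.087 in those labelled KO (adjusted p = 3.77e-07). It was 2.15-fold lower under vehicle in those labelled KO (log2 difference -0.76 ± 0.087, adjusted p = 4.76e-05). As both hemin-treated groups were at the floor, no fold is given against or between them.

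Of 13 other nitric oxide synthases and genes of arginine and tetrahydrobiopterin supply, 9 were tested. With hemin 3 rose and 2 fell in controls, with a median difference of -0.095, and 2 rose and 2 fell in those labelled KO, with a median of -0.042. Of all genes tested 23.2% rose and 26.7% fell in controls (median -0.013), and 29.9% and 30.4% in those labelled KO (median -0.0019). *Gch1*, the entry enzyme of tetrahydrobiopterin synthesis, rose from a mean of 6.64 to 8.98 FPKM in controls (0.39 ± 0.088 log2, adjusted p = 0.0037) and from 4.01 to 11.2 FPKM in those labelled KO (1.28 ± 0.088 log2, adjusted p = 4.26e-07). *Ass1*, which remakes arginine from citrulline, was 1.32 ± 0.15 log2 higher under vehicle in those labelled KO (adjusted p = 5.20e-05), with 5.56 to 7.48 FPKM against 1.78 to 2.50, and fell there with hemin (log2 difference -1.54 ± 0.15, adjusted p = 7.56e-06), with a difference of -0.22 ± 0.15 in controls (adjusted p = 0.27). The arginine transporter gene *Slc7a1* fell with hemin, with log2 differences of -0.56 ± 0.073 in controls (adjusted p = 8.96e-05) and -0.69 ± 0.073 in those labelled KO (adjusted p = 1.19e-05). *Nos1* and *Nos3*, the neuronal and endothelial synthases, had at most 3 and 8 fragments in a library.

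Of 17 genes that epithelia are known to induce alongside *Duox2* and *Nos2* in inflammation or on contact with microbes, 13 were tested. With hemin 3 rose and 6 fell in controls (median -0.30), against 23.2% and 26.7% of all genes tested, and 3 rose and 5 fell in those labelled KO (median -0.036), against 29.9% and 30.4%. Under vehicle 3 were higher and 6 lower in those labelled KO (median -0.35), against 17.4% and 16.8% of all genes tested (median 0.019). *Saa1*, an acute phase protein, went the other way from *Duox2* between genotypes, at 105 to 113 FPKM in vehicle-treated colonoids labelled KO against 6.78 to 9.96 in vehicle-treated controls (3.51 ± 0.34 log2, adjusted p = 1.12e-05), and fell with hemin, by log2 differences of -1.84 ± 0.34 in controls (adjusted p = 0.00093) and -1.53 ± 0.34 in those labelled KO (adjusted p = 0.0022). *Cxcl5*, a neutrophil chemokine, was 1.67 ± 0.11 log2 higher in those labelled KO under vehicle (adjusted p = 4.41e-07), while *Socs3*, an inhibitor of cytokine signalling, was lower (log2 difference -1.78 ± 0.17, adjusted p = 1.02e-05). *Pigr*, the receptor that carries IgA across the epithelium, rose with hemin from a mean of 420.4 to 658 FPKM in controls (0.64 ± 0.062 log2, adjusted p = 1.02e-05) and fell from 465 to 163 FPKM in those labelled KO (log2 difference -1.51 ± 0.062, adjusted p = 9.98e-09). Its interaction was -2.15 ± 0.088 log2 (adjusted p = 8.87e-08). *Reg3b*, an antimicrobial lectin, rose with hemin in controls from a mean of 0.308 to 4.76 FPKM (2.14 ± 0.11 log2, adjusted p = 1.16e-07) and had means of 0 and 0.0405 FPKM in those labelled KO. *Lcn2*, often measured as a sign of intestinal inflammation, had at most 5 fragments in a library.

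*Sod1* (ENSMUSG00000022982; chr16:90220754-90226329, plus strand), the cytosolic superoxide dismutase, rose with hemin in both genotypes and most in those labelled KO. It had 58.8, 56.8 and 59.1 FPKM in vehicle-treated controls and 113, 113 and 73.9 with hemin, and 52.8, 51.8 and 51.9 in vehicle-treated colonoids labelled KO and 143, 143 and 141 with hemin. The groups did not overlap, although replicate 3 of the hemin-treated controls lay between the other 2 libraries and the vehicle group. The rise was 0.74 ± 0.13 log2 in controls (adjusted p = 0.00077), a ratio of means of 1.72, and 1.43 ± 0.13 in those labelled KO (adjusted p = 4.02e-06), a ratio of 2.72. Without replicate 3 the rise in controls was 0.94 log2 (adjusted p = 4.76e-08). Under hemin *Sod1* was 0.53 ± 0.13 log2 higher in those labelled KO (adjusted p = 0.0090), or 0.33 without replicate 3 of the controls (adjusted p = 6.82e-05). This difference did not pass with only the 2 hemin groups fitted (adjusted p = 0.076) or on TPM (adjusted p = 0.056), but kept its call on TPM without *Gm23935*. Under vehicle the difference of -0.15 ± 0.13 did not pass (adjusted p = 0.41), but did when replicate 3 of the hemin-treated controls was left out of the shared spread (adjusted p = 0.0039) and with only the 2 vehicle groups fitted (adjusted p = 0.012).

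*Sod2* (ENSMUSG00000006818; chr17:13006846-13040063, plus strand), the mitochondrial enzyme, had small differences only, of at most 0.38 log2. The 6 vehicle-treated libraries had 8.75 to 9.33 FPKM and the 6 hemin-treated libraries 11.3 to 12.4, with no overlap between treatments. It rose by 0.32 ± 0.050 log2 in controls (adjusted p = 0.00035) and by 0.38 ± 0.050 in those labelled KO (adjusted p = 7.02e-05), and on TPM by values of 0.14 and 0.069 that did not pass (adjusted p = 0.51 and 0.74). Both rises kept their call on TPM without *Gm23935*. Between genotypes the log2 differences were -0.044 under vehicle, with a 95% interval of -0.16 to 0.068, and 0.015 under hemin, with an interval of -0.096 to 0.13. The ratio of *Sod1* to *Sod2* FPKM was 6.11 to 6.41 in vehicle-treated controls, 5.67 to 5.93 in vehicle-treated colonoids labelled KO and 11.6 to 12.1 in hemin-treated colonoids labelled KO. In hemin-treated controls it was 6.31 in replicate 3 and up to 9.93 in the others.

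*Sod3* (ENSMUSG00000072941; chr5:52363791-52371418, plus strand), the secreted enzyme, was close to the limit of detection. It had 0.178, 0.297 and 0.0973 FPKM in vehicle-treated controls, 0.117, 0.226 and 0.183 in hemin-treated controls, 0.0164, 0.0464 and 0.0636 in vehicle-treated colonoids labelled KO and 0.0372, 0 and 0.0373 in hemin-treated ones. These are 35, 23, 8 and 4 fragments in the groups. All 6 libraries labelled KO lay below all 6 controls, and 5 of the 6 were within the floor of 3 fragments per library, so no fold is given. In limma-voom fitted to the 20117 genes with at least 10 fragments, an alternative chosen after seeing the data whose fitted values at such counts depend on its prior count, the log2 difference was -2.04 under vehicle (adjusted p = 0.039) and -3.14 under hemin (adjusted p = 0.0085), and neither hemin comparison passed (adjusted p = 0.96 in controls and 0.32 in those labelled KO). The planned limma fit without the filter gave far smaller differences on log2(FPKM + 1). They were -0.19 between genotypes under vehicle (adjusted p = 0.047) and -0.20 under hemin (adjusted p = 0.044). Neither hemin comparison passed in it (adjusted p = 0.96 in controls and 0.86 in those labelled KO).

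SOD1 receives copper from its chaperone CCS, and SOD2 needs manganese. All 6 genes listed for copper and manganese supply were tested, of which 2 rose and none fell with hemin in controls (median 0.22) and 3 rose and 1 fell in those labelled KO (median 0.20). The shares of all genes tested that rose and fell were 23.2% and 26.7% in controls and 29.9% and 30.4% in those labelled KO. *Atox1*, which carries copper to the secretory pathway, rose from a mean of 82.9 to 187 FPKM in controls (1.17 ± 0.091 log2, adjusted p = 2.10e-06) and from 97.6 to 261 FPKM in those labelled KO (1.41 ± 0.091 log2, adjusted p = 2.74e-07). The copper pump gene *Atp7a* rose by 0.44 ± 0.13 log2 (adjusted p = 0.018) and 0.92 ± 0.13 log2 (adjusted p = 0.00014). *Slc30a10*, a manganese exporter, was lower in those labelled KO, with log2 differences of -1.31 ± 0.14 under vehicle (adjusted p = 3.25e-05) and -1.95 ± 0.14 under hemin (adjusted p = 1.58e-06). *Ccs* itself had 19.2 to 39.2 FPKM over all 12 libraries and passed in no comparison.

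*Cat* (ENSMUSG00000027187; chr2:103453849-103485160, minus strand) rose with hemin in both genotypes, from a lower level in those labelled KO. Controls had 43.8, 42.3 and 42.3 FPKM with vehicle and 102, 95.8 and 95.5 with hemin. Those labelled KO had 24.6, 23.0 and 23.5 FPKM with vehicle and 44.6, 48.1 and 47.9 with hemin, so that their hemin level was near that of controls without hemin and no 2 groups overlapped. The rise was 1.17 ± 0.054 log2 in controls (adjusted p = 5.47e-08) and 0.95 ± 0.054 in those labelled KO (adjusted p = 1.17e-07), ratios of 2.29 and 1.98. *Cat* was 1.80-fold lower in those labelled KO under vehicle (log2 difference -0.83 ± 0.054, adjusted p = 5.80e-07) and 2.09-fold lower under hemin (-1.05 ± 0.054, adjusted p = 9.28e-08). Within a library the ratio of *Cat* to *Sod1* FPKM was 0.312 to 0.340 in hemin-treated colonoids labelled KO, 0.445 to 0.466 in vehicle-treated ones, 0.716 to 0.745 in vehicle-treated controls and 0.851 to 1.29 in hemin-treated controls. With hemin this ratio was thus lower in colonoids labelled KO and higher in controls, without overlap, which is given as a description.

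**Figure D4:**
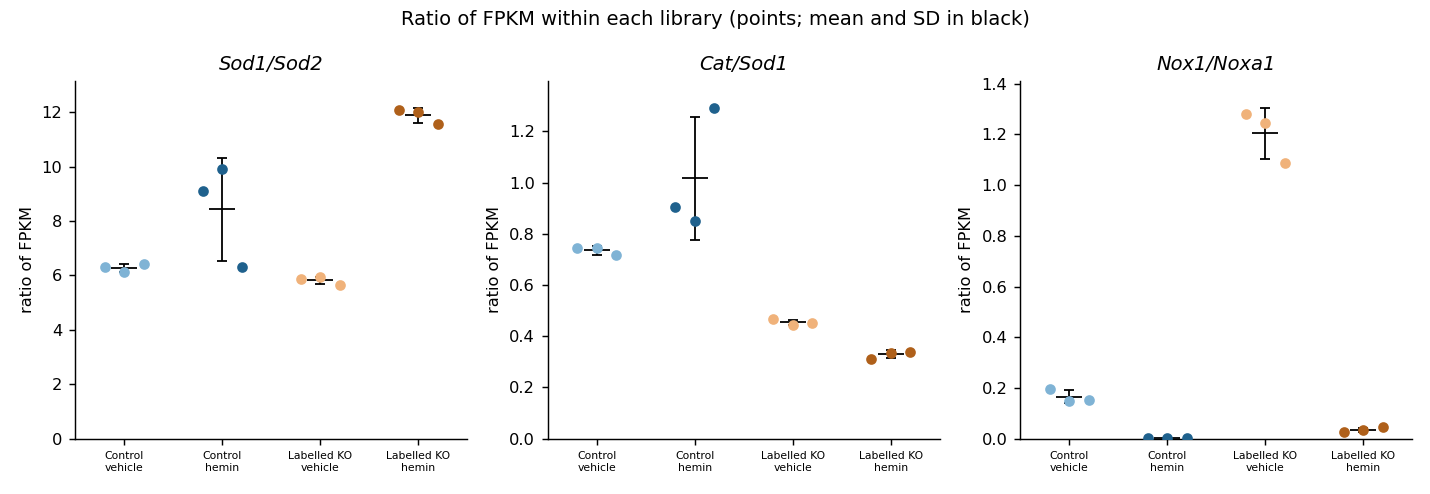
Ratio of FPKM of 2 genes within each library (vertical axes, starting at 0) in the 4 groups, with 1 point per library and the mean and SD in black. The *Cat* to *Sod1* ratio is lowest in hemin-treated libraries labelled KO, at 0.312 to 0.340, and the *Nox1* to *Noxa1* ratio is 1.09 to 1.28 in vehicle-treated libraries labelled KO and at most 0.194 elsewhere.

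All 15 genes of peroxisome import and biogenesis, by which catalase reaches its organelle, were tested. With hemin 5 rose and none fell in controls (median 0.27), against 23.2% and 26.7% of all genes tested, and 7 rose and none fell in those labelled KO (median 0.28), against 29.9% and 30.4%. Under vehicle, where *Cat* was lower in those labelled KO, none was higher, 2 were lower and 13 did not pass (median -0.0049), against 17.4% higher and 16.8% lower of all genes tested. *Pex11a*, which acts in peroxisome division, rose by 1.03 ± 0.11 log2 with hemin in those labelled KO (adjusted p = 1.69e-05), had a difference of 0.29 ± 0.11 in controls (adjusted p = 0.053) and was lower in those labelled KO under vehicle (log2 difference -0.57 ± 0.11, adjusted p = 0.0025). *Pex13*, part of the import pore, rose by 0.76 ± 0.16 log2 with hemin in those labelled KO (adjusted p = 0.0022), with a difference of 0.40 ± 0.16 in controls (adjusted p = 0.066). *Pex10* rose by 0.35 ± 0.073 log2 in controls (adjusted p = 0.0021). Under hemin it was lower in those labelled KO (-0.36 ± 0.073, adjusted p = 0.0030), with an interaction of -0.43 ± 0.10 (adjusted p = 0.012). The interaction passed as positive for 2 and negative for 2 of the 15, against 13.3% and 10.5% of all genes tested.

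Of 17 other oxidases that make hydrogen peroxide, 14 were tested. With hemin 4 rose and 6 fell in controls (median -0.098), against 23.2% and 26.7% of all genes tested, and 7 rose and 5 fell in those labelled KO (median 0.25), against 29.9% and 30.4%. *Hao2*, a peroxisomal hydroxyacid oxidase, fell by log2 differences of -3.28 ± 0.12 in controls (adjusted p = 7.65e-09) and -3.24 ± 0.12 in those labelled KO (adjusted p = 3.37e-09), from 22.2 to 28.2 FPKM with vehicle to 1.28 to 2.20 with hemin over both genotypes. *Xdh*, xanthine dehydrogenase, rose by 0.57 ± 0.078 log2 in controls (adjusted p = 0.00013) and by 1.36 ± 0.078 in those labelled KO (adjusted p = 1.22e-07). *Acox2*, a peroxisomal oxidase of bile acid synthesis, was lower in those labelled KO under vehicle (log2 difference -1.65 ± 0.092, adjusted p = 1.52e-07), and *Qsox1*, which forms disulfide bonds in the secretory pathway, was 1.27 ± 0.10 log2 higher (adjusted p = 2.63e-06).

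The difference between the hemin effects of the 2 genotypes, tested as an interaction, passed for 5 of the 9 genes, positive in 3 and negative in 2, when 13.3% and 10.5% of all genes tested passed in those directions. On TPM these shares were 2.80% and 5.40%, and 9.41% and 15.0% without *Gm23935*. It was -2.69 ± 0.10 log2 for *Nox1* (adjusted p = 7.33e-08), the gene with the higher starting level in those labelled KO, and -1.95 ± 0.21 for *Noxa1* (adjusted p = 8.51e-05). As *Nox1* was near 0 in both hemin-treated groups, its term is mostly its vehicle difference of 2.89 with the sign turned. The *Nox1* term was -2.21 with a pseudocount of 0.1 (adjusted p = 2.91e-05) and -1.93 with limma-voom (adjusted p = 0.0070). For *Sod1* the interaction was 0.69 ± 0.19 (adjusted p = 0.021), or 0.49 without replicate 3 of the hemin-treated controls (adjusted p = 6.93e-05), and 0.54 on TPM, which did not pass (adjusted p = 0.25). The *Sod1* term kept its call on TPM without *Gm23935*. For *Duox2* the interaction was 0.72 ± 0.16 (adjusted p = 0.0065) and for *Nos2* 0.75 ± 0.12 (adjusted p = 0.0013), both genes at lower vehicle levels in those labelled KO. With 5 fragments in each hemin-treated group, the value of *Nos2* is close to its vehicle difference of -0.76 with the sign turned and adds nothing to it. Neither of these 2 passed with a pseudocount of 0.1 (0.42 with adjusted p = 0.42, and 1.00 with adjusted p = 0.087) or with limma-voom (0.29 with adjusted p = 0.62, and 0.37 with adjusted p = 0.85). *Cat* (-0.22 ± 0.077, adjusted p = 0.060), *Noxo1* (0.64 ± 0.23, adjusted p = 0.072, or 1.09 with adjusted p = 0.0497 by limma-voom), *Duoxa2* (0.43 ± 0.36, adjusted p = 0.44) and *Sod2* (0.059 ± 0.071, adjusted p = 0.61) did not pass. *Cat* and *Duoxa2* did so without replicate 3 of the hemin-treated controls (-0.24 with adjusted p = 0.023, and 0.77 with adjusted p = 0.014), and *Cat* also on TPM without *Gm23935* (-0.33, adjusted p = 0.0094). The term of *Duoxa2* was negative with a pseudocount of 0.1 (-0.19, adjusted p = 0.89) and with limma-voom (-0.59, adjusted p = 0.66).

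**Figure D5:**
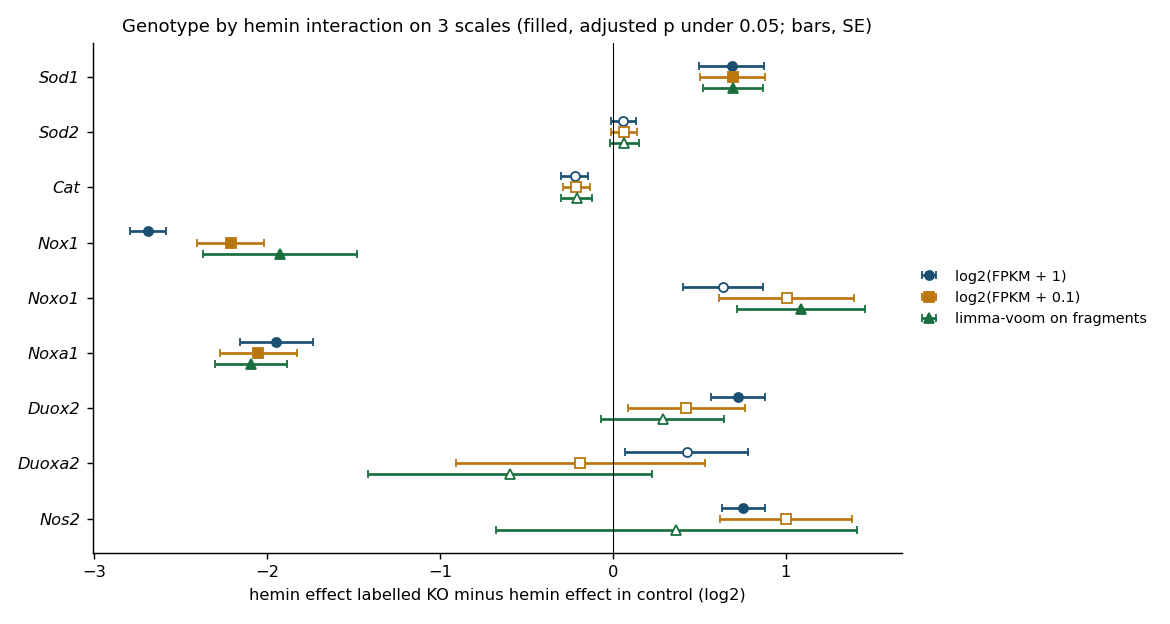
Hemin effect in colonoids labelled KO minus that in controls (horizontal axis, log2) for the 9 tested genes, on log2(FPKM + 1), on log2(FPKM + 0.1) and by limma-voom on fragments, with bars for the SE and filled symbols where the adjusted p was under 0.05. *Nox1*, *Noxa1* and *Sod1* are filled on all 3 scales, *Duox2* and *Nos2* on log2(FPKM + 1) alone and *Noxo1* with limma-voom alone.

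The order of levels within a group also differed. In vehicle-treated controls *Sod1* was highest with a mean of 58.2 ± 1.26 FPKM (SD, n = 3), then *Noxa1* with 51.3 ± 3.56, *Cat* with 42.8 ± 0.897 and *Sod2* with 9.28 ± 0.0555, and *Sod2* and *Nox1* overlapped. In vehicle-treated colonoids labelled KO *Nox1* led with 68.6 ± 2.77 FPKM, ahead of *Noxa1* with 57.1 ± 3.51, *Sod1* with 52.2 ± 0.560 and *Cat* with 23.7 ± 0.816, and these did not overlap. With hemin *Sod1* and *Cat* overlapped at the top in controls, with 99.9 ± 22.5 and 97.9 ± 3.84 FPKM, while *Sod1* stood alone with 142 ± 1.29 in those labelled KO. These levels divide by the deposited gene length, which joins the exons of all transcripts. For *Sod1* that length was 3970 bases against 641 for the principal transcript Sod1-201 of GENCODE M21, 6.19 times as long, so that per base of this transcript the vehicle means were 361 FPKM in controls and 323 in those labelled KO, above *Nox1* at 10.8 and 88.6. Ratios of FPKM of 1 gene between groups do not depend on this length, while differences on log2(FPKM + 1) do, through the added 1.

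The genes whose profiles over the 12 libraries lay closest to each of the 7 members whose SD was at least 0.5 were found by the root mean square difference between centred log2(FPKM + 1) values. For *Nox1* they were *Creb3l1*, *Gsdmc4* and *Ccl6*, with differences of 0.573, 0.727 and 0.746. *Creb3l1* had means of 34.6, 0.670, 183 and 1.24 FPKM in the order control vehicle, control hemin, labelled KO vehicle and labelled KO hemin. For *Noxa1* they were *Tff3*, *Ifitm2* and *Phgdh* (0.192 to 0.206), for *Duox2* *Grhl3*, *Scd1* and *Lrp1* (0.167 to 0.207), and for *Duoxa2* *5430427M07Rik*, *Arid5b* and *Mmp28* (0.260 to 0.280). *Nos2* lay closest to *Lrp1*, *Fer1l4* and *Creb3l3* (0.136 to 0.156), so that *Lrp1* was named for both *Duox2* and *Nos2*. The nearest to *Sod1* were *Cd151*, *Fam219a* and *Reep6* (0.0793 to 0.104) and to *Cat* *Tifa*, *Fbxo25* and *Snx7* (0.137 to 0.152).

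In whole colonoids, fewer cells of a type that expresses a gene and less of its RNA per cell cannot be told apart. Summed epithelial markers were lowest in vehicle-treated colonoids labelled KO, at 5873 to 5909 FPKM against 8221 to 9199 in vehicle-treated controls, and their part in the differences between these groups was not tested. The members of this sum differed unequally: *Krt8* had 2317 to 2362 FPKM against 3605 to 3976, *Epcam* 758 to 781 against 795 to 809, *Cdx1* 270.4 to 282 against 185 to 226 and *Cdx2* 47.3 to 50.5 against 175 to 217. Markers differed with hemin too, again unequally. *Epcam* had 1361 to 1405 FPKM in hemin-treated controls and 1418 to 1595 in hemin-treated colonoids labelled KO. *Krt18* went from 560 to 569 FPKM with vehicle to 379 to 427 with hemin in those labelled KO. Their part in the hemin differences was not tested. *Cyba* is also known from immune cells, whose markers summed to 1.02 to 1.79 FPKM in vehicle-treated colonoids labelled KO and 2.46 to 4.74 in vehicle-treated controls, and their part in its difference was not tested. Besides *Entpd8*, the genes that overlap a member on the opposite strand with more than 10 fragments were *Cstf2* at *Nox1*, *Scaf4* at *Sod1* and *Tbl3* at *Noxo1*, at 5.26 to 15.0, 8.63 to 15.8 and 7.31 to 11.1 FPKM. *Xkrx*, on the same strand within *Nox1*, had at most 34 fragments.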

How the data were processed

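RNA-seq was run on 12 libraries of mouse colonoids, 3 in each of the 4 groups given by the labels. The deposited table holds FPKM for 54532 genes, which the authors made by dividing fragments by gene length and a factor for each library. The submitters' processing notes name fastp, HISAT2 2.0.5, featureCounts 1.5.0-p3 and mm10. The strand setting is not given in the sources used here. Values times gene length were whole multiples of 1 fragment for 100% of values (tolerance 0.01), which gave 11648801 to 25101868 fragments per library. That number limits low genes: a count of 0 allows up to 3 fragments. Levels were tested as log2(FPKM + 1) in genes with at least 1 FPKM in at least 3 libraries (12740 genes), with limma 3.58.1 (R 4.3.3, data.table version 1.17.8), empirical Bayes with an intensity trend and Benjamini-Hochberg adjustment over all genes tested. All 12 libraries entered 1 fit with 4 group means and 8 residual degrees of freedom.

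The members were picked by symbol, and they, the gene lists and the tests were chosen with earlier results of these data known. From each list up to 4 genes per comparison were open to naming, those with the greatest change among genes that passed, besides genes named for their role or for not being tested. Profiles were compared for members with an SD of at least 0.5, naming 3 genes each. Folds of means have exact 95% intervals from summed fragments. Promoter windows came from RefSeq (GRCm38.p6), and gene models from GENCODE M21. No protein sequence was used here. Results for a few listed genes are not reported here. Other tools were Python 3.11.15, numpy 2.4.6, pandas 2.3.3, scipy 1.17.1 and matplotlib 3.10.9. The fit was also run on simulated counts with the same dispersion for every gene and changes only in genes with many fragments. That run does not cover genes with few fragments or libraries that stand apart, and is not used as support. Alternatives were a pseudocount of 0.1, no filter, a mean of at least 5 FPKM, TPM, a replicate block, no trend, only the groups compared, an added fold limit, limma-voom on fragments and leaving out each library. Median-of-ratios scaling changed no value, since its factors were equal in all 12 libraries of the deposited table, and is not counted.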

Additional observations from a re-analysis of the deposited data

Results flagged for a closer look

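The interaction term of the fit, the hemin effect in those labelled KO minus that in controls, passed for 5 of the 9 tested genes, when 23.8% of all genes tested passed. On TPM 4 of the 9 passed, without *Sod1*, against 8.20% of all genes. With *Gm23935* left out of the TPM the *Sod1* term passed, when 24.4% of all genes did. The interaction terms were 0.69 log2 for *Sod1*, -2.69 for *Nox1*, -1.95 for *Noxa1*, 0.72 for *Duox2* and 0.75 for *Nos2*. Those of *Nox1*, *Noxa1* and *Sod1* passed on log2(FPKM + 1), log2(FPKM + 0.1) and limma-voom alike, and those of *Duox2* and *Nos2* on the first alone of these 3. The *Nox1* term was -2.69, -2.21 and -1.93 on them in that order. *Nos2* had 5 fragments in each hemin-treated group, so its term adds nothing to its vehicle difference of -0.76. With 3 libraries in a group, single libraries were not tested as outliers.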

How the results depend on the processing

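Of the alternatives to single-gene results, 939 kept their direction and side of the threshold, 18 gained and 27 lost the call, and none of the called differences reversed. Another 22, called neither way, changed sign, for *Noxo1* in controls with hemin (-0.20 to 0.18) and between genotypes under vehicle, for *Duoxa2* in the interaction, for *Nos2* under hemin and for *Sod2* between genotypes and in the interaction. For many of the 939 the direction could not change. The replicate block, no trend, only the groups compared, the fold limit and the changed filters leave each difference as it was. A left-out library also leaves the comparisons without its group at the same difference. The tally of directions is therefore no measure of how firm they are. With a pseudocount of 0.1, 7 members passed between genotypes under hemin and 3 in the interaction, against 34.6% and 22.4% of all genes tested. With a mean of at least 5 FPKM, which leaves 5 members to test, 5 passed with hemin in controls, 5 in those labelled KO, 2 between genotypes under vehicle and 3 in the interaction, against 55.7%, 67.2%, 35.4% and 25.7% of all genes. With only the groups compared, 2 passed under hemin, against 21.4%. With an absolute log2 difference above 1 required as well, 5 passed with hemin in controls, 6 in those labelled KO, where *Sod2*, *Cat* and *Noxo1* did not, 3 between genotypes under vehicle, 2 under hemin and 2 in the interaction, against 8.11%, 12.9%, 6.80%, 6.01% and 5.13%. With limma-voom extended to every gene that had 10 or more fragments, chosen after seeing the data as was TPM without *Gm23935* in the sum, 3 passed in the interaction, against 15.4%. *Gm23935* held 16.8%, 29.0% and 21.0% of the FPKM sum in 3 libraries, which moves TPM. These were replicate 1 of the vehicle-treated controls, replicate 1 of the hemin-treated controls and replicate 2 of the hemin-treated libraries labelled KO.

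Leaving out each library in turn, 8 passed in every case with hemin in controls, 9 with hemin in those labelled KO, 5 to 6 between genotypes under vehicle, 3 to 5 under hemin and 5 to 7 in the interaction. The shares of all genes ran from 43.2% to 56.6%, 54.2% to 68.8%, 27.2% to 45.7%, 27.4% to 43.0% and 18.5% to 37.1% in that order. Besides the values given with each gene, *Nox1* passed under hemin without replicate 1 of the vehicle-treated controls (adjusted p = 0.038), *Noxo1* in the interaction without replicate 1 of the hemin-treated controls (0.84, adjusted p = 0.0070) and *Duoxa2* under hemin without replicate 2 of these (-0.84, adjusted p = 0.018).

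Libraries with the same number shared nothing else in the labels, and their deviations from group means had a mean r of -0.042 over 18 pairs, from -0.33 to 0.18. With the replicate block, 8, 9, 5, 5 and 5 members passed in the 4 comparisons and the interaction, against 46.9%, 57.8%, 31.2%, 31.0% and 20.1% of all genes, and *Duoxa2* passed under hemin (-0.59, adjusted p = 0.0497). Depth limits *Sod3*, and *Nox1*, *Nos2*, *Duox2* and *Duoxa2* with hemin, where few fragments remain. The cause of the changes was not tested.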
